A study of Mus musculus with 12 samples.

Results

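Eicosanoid synthesis was followed through 10 genes in quiescent and cycling leukemic cells of chronic myeloid leukemia (CML) mice: Pla2g4a, Alox5, Alox5ap, Ltc4s, Lta4h, Alox12, Ptgs1, Ptgs2, Hpgds and Hpgd. They were chosen by name, 10 of the 46103 genes listed, and with earlier results of these data known, so their place on the list is no finding. RNA was sequenced from 12 libraries of 100 sorted cells each, 3 libraries per group. In the model, bone marrow cells of 5FU-treated donors were transduced with a retrovirus carrying human BCR-ABL1 and GFP and given to lethally irradiated C57BL/6 recipients. The donors carried a G0 marker (G0M), an mVenus fluorescent protein fused to mutant p27 in the Rosa26 locus, switched on by Vav1-Cre in blood cells. The sorted cells came from bone marrow and spleen and were BCR-ABL1+ KSL cells (lineage-negative, Sca1-positive, c-Kit-positive) that also carried CD27. DP cells (G0M+CD27+) and SP cells (G0M-CD27+) came from vehicle-treated mice, and the labels call them CML stem cells and progenitors. IMDP and IMSP cells are the same populations after imatinib, the kinase inhibitor used against BCR-ABL1, gavaged once a day (40 mg/kg, begun on day 10 of the transplant). The labels do not say that the libraries of a group came from separate mice, so the p-values measure the spread between these libraries, which may be technical. The sorted cells are bulk samples, in which fewer cells of a type and less RNA per cell cannot be told apart.

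Expression was deposited as RPKM, a read count scaled to transcript length and to the depth of the library. Between 11.4 and 20.6 M reads lay behind each library, and 1 read per kb of transcript equalled 0.0486 to 0.088 RPKM. Of the 10 genes, 8 reached 1 RPKM in at least 3 libraries and were tested with 10072 genes in all, while Alox12 and Hpgd did not. All 9 stem and progenitor markers were above 0 in every library, with a summed level of 86.1 to 182 RPKM. Mki67, a proliferation gene, was lower in the G0M+ cells, with a log2 fold change of -1.94 between DP and SP cells (limma adjusted p = 0.00263) and of -2.90 between IMDP and IMSP cells (limma adjusted p = 3.6e-05). Library numbers 1 to 6 are the imatinib libraries and 7 to 12 the vehicle libraries, so treatment and library number cannot be told apart. Each neighbouring pair of library numbers holds 1 G0M+ and 1 G0M- library of the same treatment, and these pairs were used as a block for the population contrasts.

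Eicosanoids are signalling lipids made from arachidonic acid, which cytosolic phospholipase A2 (Pla2g4a) releases from membranes. 5-lipoxygenase (Alox5), helped by its activating protein (Alox5ap), turns arachidonic acid into leukotriene A4, which Lta4h converts to the neutrophil attractant leukotriene B4 and Ltc4s to the cysteinyl leukotriene C4. The cyclooxygenases Ptgs1 and Ptgs2 make prostaglandin H2, the common precursor of prostaglandins and thromboxane, from which Hpgds makes prostaglandin D2. Hpgd inactivates prostaglandins, and Alox12 is the platelet-type 12-lipoxygenase. Alox5 is known in this field as a gene on which leukemia stem cells of BCR-ABL1 mice depend.

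The promoters of 4 of these genes are shown because the results turn on them: Alox5 and Ptgs2, which varied together over the libraries, and Lta4h and Ltc4s, which moved in opposite directions in the imatinib-treated cells. Each run is the 250 bases before the annotated start on the gene's own strand, from RefSeq (GRCm38.p6), and capitals mark the motif matches described after them.
Alox5, chr6:116461179-116461428, minus strand: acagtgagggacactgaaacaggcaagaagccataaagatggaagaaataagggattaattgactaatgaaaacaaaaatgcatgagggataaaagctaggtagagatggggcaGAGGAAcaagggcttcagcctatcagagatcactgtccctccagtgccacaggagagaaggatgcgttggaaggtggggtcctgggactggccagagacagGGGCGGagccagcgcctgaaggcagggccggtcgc
Ptgs2, chr1:150099781-150100030, plus strand: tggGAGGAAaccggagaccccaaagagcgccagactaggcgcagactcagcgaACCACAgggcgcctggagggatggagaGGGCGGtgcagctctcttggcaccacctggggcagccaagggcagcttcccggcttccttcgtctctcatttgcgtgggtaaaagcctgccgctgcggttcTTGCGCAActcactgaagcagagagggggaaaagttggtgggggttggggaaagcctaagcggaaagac
Lta4h, chr10:93453146-93453395, plus strand: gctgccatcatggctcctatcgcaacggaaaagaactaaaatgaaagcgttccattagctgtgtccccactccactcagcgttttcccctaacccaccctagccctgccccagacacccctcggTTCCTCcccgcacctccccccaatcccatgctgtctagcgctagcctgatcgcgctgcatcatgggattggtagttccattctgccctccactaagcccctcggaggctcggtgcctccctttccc
Ltc4s, chr11:50238533-50238782, minus strand: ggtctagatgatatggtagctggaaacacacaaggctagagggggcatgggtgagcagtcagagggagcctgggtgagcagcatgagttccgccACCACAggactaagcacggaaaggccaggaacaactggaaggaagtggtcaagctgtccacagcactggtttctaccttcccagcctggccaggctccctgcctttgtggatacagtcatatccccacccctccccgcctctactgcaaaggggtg

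On both strands the windows were searched for the GC box, spelled GGGCGG and held by 32.7% of the 32851 promoters of this length. For ETS factors such as PU.1 the letters were GAGGAA (23.3% of promoters), for RUNX factors TGTGGT (14%), and for C/EBP factors TTGCGNAA (0.67%). The TATA box was searched as TATAAA (12.4%), the motif of GATA factors as AGATAA (9.99%), that of AP-1 as TGANTCA (6.75%), the CRE as TGACGT (6.47%), and the NF-kB motif, whose ambiguous letters are not spelled out here, was held by 7.25%. The Alox5 window held an ETS/PU.1 match from base -136 and a GC box from base -35, counted back from the start. The Ptgs2 window held the same motifs from bases -247 and -170, a RUNX match on the opposite strand from base -197, and a C/EBP match from base -69. Lta4h held 1 ETS/PU.1 match and Ltc4s 1 RUNX match, both on the opposite strand. Of the 9 listed genes with a promoter entry, 7 held an ETS/PU.1 match, 4 a GC box, 3 a RUNX match, 1 a C/EBP match and 1 a TATA box, and 0 held a CRE, AP-1, GATA or NF-kB match. These are matches of letters and say nothing of binding.

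Over all 12 libraries the level per length was highest for Lta4h, with a mean of 40 RPKM, followed by Alox5ap (21.4), Pla2g4a (11.3), Alox5 (8.74), Ptgs1 (4.43), Ptgs2 (3.07), Ltc4s (1.00), Alox12 (0.942), Hpgds (0.842) and Hpgd (0.0545). Lta4h stood above 96.3% of the tested genes and Hpgds above 2.53%. The order held in 10 of 12 libraries between Lta4h and Alox5ap and in 11 between Alox5ap and Pla2g4a. Alox5 and Ptgs1 could not be ordered by their spread, since Alox5 was the higher one in 7 of 12 libraries, and the order of Alox12 and Hpgds held in 4. The plot of RPKM by library shows the 10 genes in each group.

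**Figure D1:**
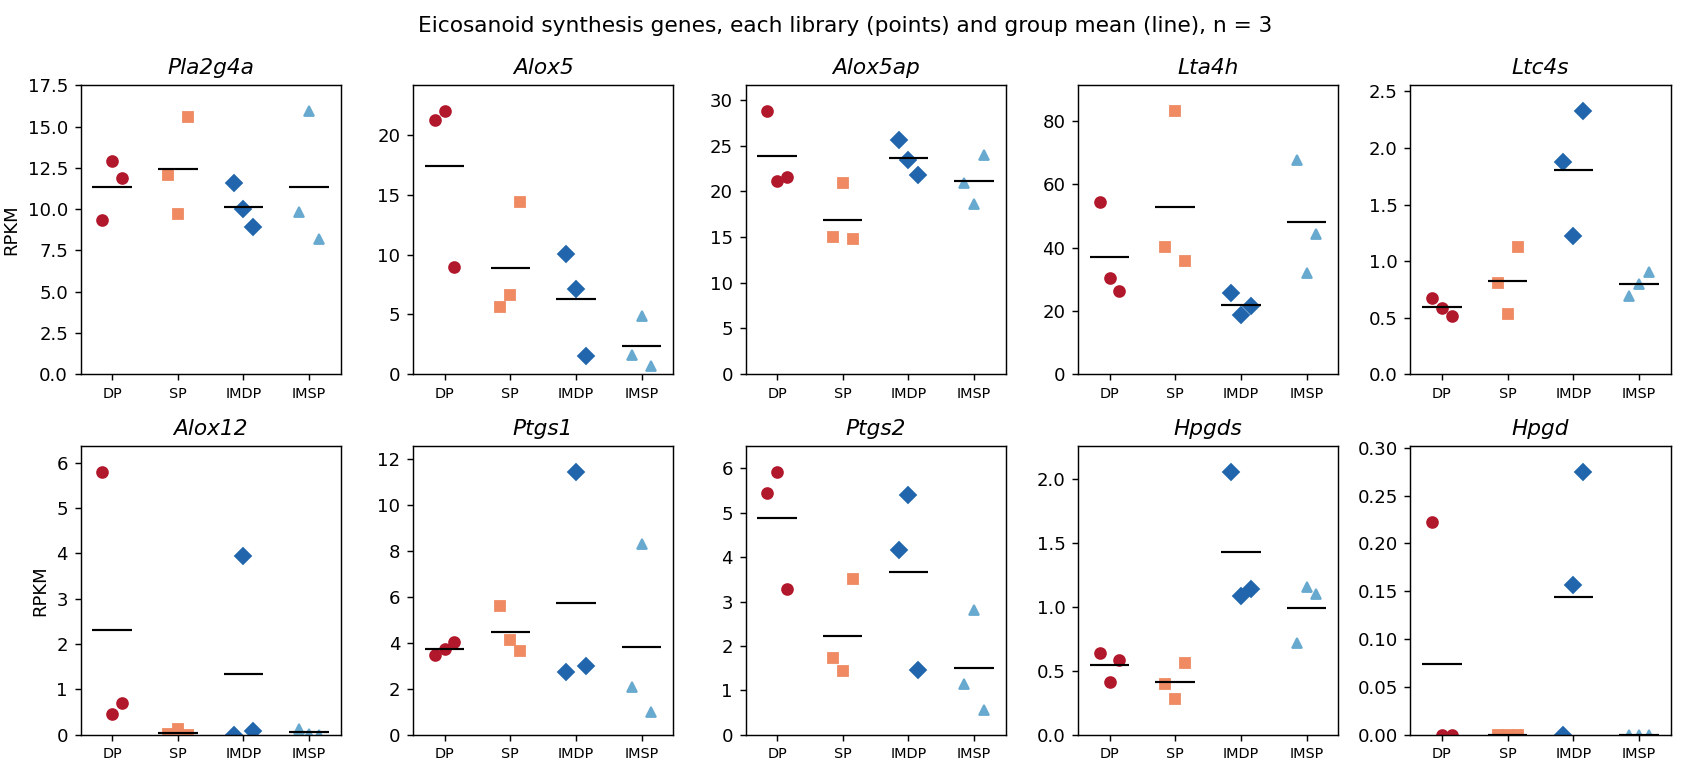
RPKM of the 10 eicosanoid synthesis genes (vertical axes from 0, a scale for each gene) in the 3 libraries of DP, SP, IMDP and IMSP cells, with a line at the group mean. Alox5 lies between 0.708 and 22.0 RPKM and falls into no clear gap between groups, the 3 Ltc4s values of IMDP cells lie above the other 9 libraries, and Alox12 exceeds 1 RPKM in DP1 and IMDP2 only.

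The share of calls among the 8 tested genes was close to that over the whole table, so the counts are a description. In DP against SP cells 0 of 8 passed the threshold (limma, adjusted p under 0.05), where 2.26% of all tested genes did. In IMDP against IMSP cells 2 of 8 passed, Ltc4s higher and Lta4h lower in the IMDP cells, where 25.6% of all genes did. The median of all genes was itself -0.255 on the log2 scale. Ltc4s was among the 8 tested genes only through its high IMDP libraries. Averaged over treatments, Ptgs2 was higher and Lta4h lower in G0M+ than in G0M- cells, again 2 of 8, beside 26.3% of all genes and a median of -0.135. With each library scaled to the same median the 2 called genes were Ptgs2 and Alox5ap (log2 fold change 0.49, adjusted p = 0.0165), and Lta4h was not called. Imatinib moved 0 of 8 in DP cells (0.367% of all genes, median -0.17), 0 of 8 in SP cells (0%), and 0 of 8 averaged over both populations (0.854%). The population difference itself was called different between the treatments for 0 of 8 genes (0%, median -0.246). At an unadjusted p under 0.05, these 5 contrasts without a call (DP against SP, IMDP against DP, IMSP against SP, imatinib averaged, interaction) held 1, 3, 2, 3 and 1 of the 8 genes, and limma-voom on the recovered reads called 0 in each. Over all 10072 genes the same counts were 1328, 2061, 845, 1811 and 937. DP against SP shares its DP libraries with IMDP against DP, and the other contrasts share libraries likewise, so they are no independent evidence of each other.

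With neighbouring library numbers as a block, more genes passed in the population contrasts, among the 8 as over the whole table. In DP against SP cells 2 of 8 passed (Alox5ap and Ptgs2) beside 9.73% of all genes, in IMDP against IMSP cells 5 of 8 (Alox5, Ltc4s, Lta4h, Ptgs1 and Ptgs2) beside 44.1%, and averaged over treatments 4 of 8 (Alox5, Alox5ap, Ptgs2 and Lta4h) beside 46.9%. The block says that libraries of neighbouring number deviated together. The deviations of the 6 pairs from their group means correlated at 0.43 to 0.65 over genes. Where the 3 libraries of one group lay wholly above or below those of the other, the count was 1 of 8 in DP against SP cells (22.4% of all genes), 2 between IMDP and IMSP cells (39%), 3 between IMDP and DP cells (23.6%) and 2 in IMSP against SP cells (13.8%).

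**Figure D2:**
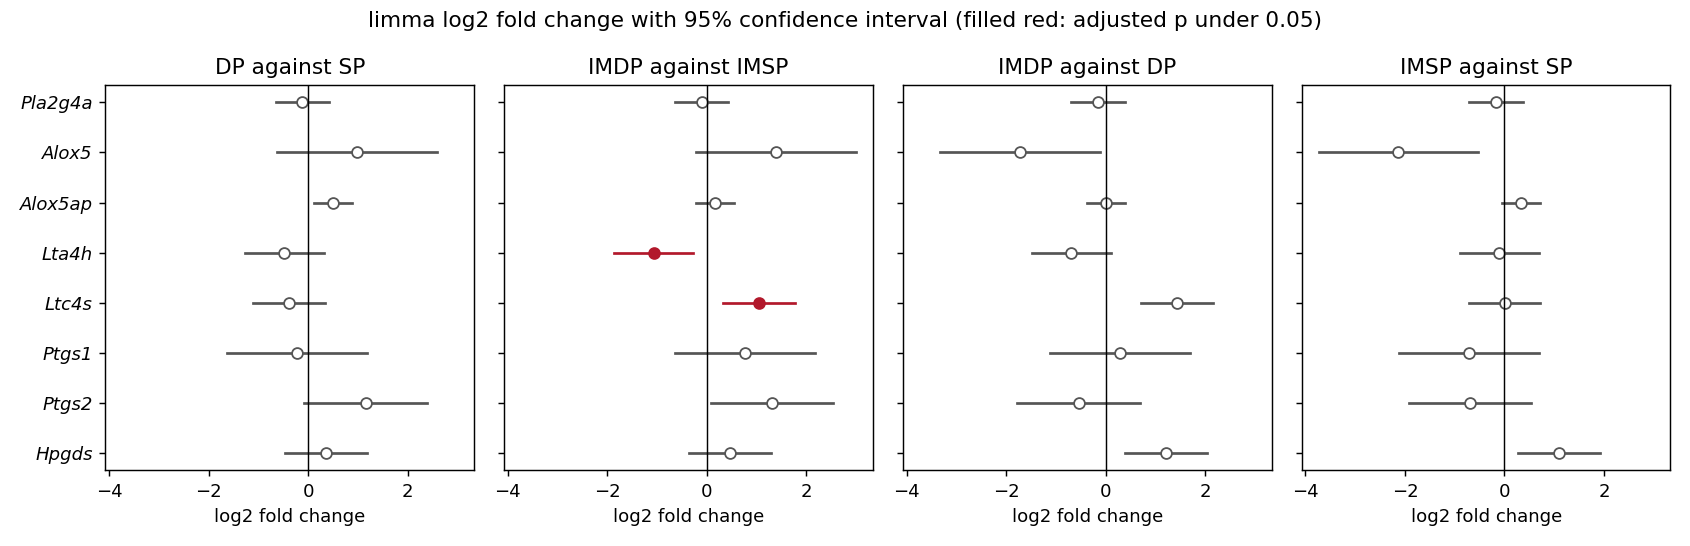
log2 fold change (horizontal axis) of the 8 tested genes in the 4 pairwise contrasts, with the 95% confidence interval from limma. Filled red marks an adjusted p under 0.05, reached by Ltc4s at 1.05 and Lta4h at -1.07 in IMDP against IMSP cells.

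Alox5, which encodes 5-lipoxygenase, lies on chromosome 6 (GRCm38, 116410071 to 116461178). It measured 21.3, 22.0 and 8.99 RPKM in the DP libraries 1 to 3, 5.64, 6.63 and 14.4 in SP, 10.1, 7.11 and 1.55 in IMDP, and 1.57, 4.85 and 0.708 in IMSP cells, from 27 to 974 reads. The group means were 17.4 ± 7.31 (SD, n = 3), 8.90 ± 4.81, 6.25 ± 4.34 and 2.38 ± 2.19 RPKM. The DP and SP ranges overlapped through DP3 and SP3, the IMDP and IMSP ranges through IMDP3, and only the IMSP libraries lay wholly below those of SP.

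Between populations the Alox5 log2 fold change was 0.98 ± 0.74 (SE) in DP against SP cells and 1.39 ± 0.74 in IMDP against IMSP cells, neither past the threshold (adjusted p = 0.584 and 0.179). Averaged over treatments it was 1.19 ± 0.52 (95% interval 0.0503 to 2.32, adjusted p = 0.107). The G0M+ library was the higher one in 6 of 6 neighbouring pairs, by 0.541 to 2.61 on the log2 scale, and with these pairs as a block the averaged difference passed (adjusted p = 0.00425). Alox5 was thus higher in the G0M+ library of every pair, but the libraries of a group differed by as much as the groups did.

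Between treatments the means stood lower in the imatinib libraries in both populations, without a call. The log2 fold change was -1.72 ± 0.74 in IMDP against DP cells, -2.13 ± 0.74 in IMSP against SP cells, and -1.92 ± 0.52 averaged over populations (95% interval -3.06 to -0.788, adjusted p = 0.0919). With IMDP2 and IMSP2 left out, a choice made after seeing the data, the averaged value was -2.41 (limma adjusted p = 0.0378). These are the imatinib libraries with the highest megakaryocyte and platelet markers. IMSP2 was the highest IMSP library for Alox5, so leaving it out lowers the IMSP mean, and the value is a description only. Without DP1 and IMDP1 the averaged value was -2.09 (limma adjusted p = 0.14). The interaction was 0.41 ± 1.04, so the data did not show a population difference that changed with imatinib, and its interval ran from -1.86 to 2.68.

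Alox5ap, the membrane protein that presents arachidonic acid to 5-lipoxygenase, varied much less. Its values were 28.8, 21.1 and 21.6 RPKM in DP, 14.96, 20.9 and 14.8 in SP, 25.6, 23.5 and 21.8 in IMDP, and 20.9, 18.7 and 24.0 in IMSP cells. All DP libraries lay above all SP libraries, by a narrow margin between DP2 and SP2, while the imatinib groups overlapped. DP against SP cells gave a log2 fold change of 0.50 ± 0.17 (adjusted p = 0.233, and 0.0290 with the library-number block) and 0.16 ± 0.17 in IMDP against IMSP cells (adjusted p = 0.520). Imatinib made little difference in DP cells, with a log2 fold change of 0.00 ± 0.17 and an interval of -0.383 to 0.379. Enzyme and activating protein did not vary together: over the 12 libraries the correlation of their log2 values was -0.02.

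Lta4h, which makes leukotriene B4, was the one gene on the leukotriene arm with a call in each of the imatinib and averaged population contrasts, and it was lower in G0M+ cells. It measured 54.6, 30.5 and 26.3 RPKM in DP, 40.1, 83.1 and 35.7 in SP, 25.8, 18.8 and 21.4 in IMDP, and 67.8, 31.9 and 44.4 in IMSP cells. The IMDP libraries were all below those of IMSP and of DP, whereas DP and SP overlapped through DP1. IMDP against IMSP cells gave a log2 fold change of -1.07 ± 0.36 (adjusted p = 0.0490), which is -0.81 relative to the median of all genes, and -0.48 ± 0.36 in DP against SP cells (adjusted p = 0.587). Averaged over treatments it was -0.77 ± 0.26 (adjusted p = 0.0440), and the G0M+ library was the lower one in 6 of 6 neighbouring pairs (adjusted p = 0.000333 with the block).

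The Lta4h calls are close to the threshold. Both were lost without a filter on low values, with median scaling and without IMDP2 and IMSP2, with adjusted p up to 0.131 in IMDP against IMSP cells and 0.0857 averaged over treatments. Each was kept in 4 of 12 fits that left out 1 library, with adjusted p from 0.0269 to 0.194 in IMDP against IMSP cells and from 0.0169 to 0.109 averaged over treatments. Lta4h moved with the neutrophil markers, whose summed level was 71.1 to 1432 RPKM in DP, 389 to 2657 in SP, 76.2 to 292 in IMDP and 523 to 2229 in IMSP cells. The correlation of the log2 values over the 12 libraries was 0.88, and 0.83 after removing the group means. It was 0.86 with the lymphoid marker sum (29.4 to 267 RPKM), which is nearly all 1 gene, Nkg7, at 25.1 to 265 RPKM. Of the 12 neutrophil markers, 6 were tested. Averaged over treatments 4 were lower in G0M+ cells, beside 2112 of all 10072 genes. The 4 were Mpo (37.9 to 1389 RPKM), Prtn3, Ctsg and Lcn2. Mpo, Elane, Prtn3 and Ctsg encode granule proteins of early neutrophil precursors, and the other 8 markers are of later stages. Of these, S100a8 reached 35.94 RPKM, Lcn2 9.68, S100a9 4.39 and Mmp8 1.45, and Ltf, Camp, Ngp and Ly6g stayed at or under 0.862. Their part in the Lta4h result was not tested.

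Ltc4s, which makes leukotriene C4, was at a much lower level. It moved opposite to Lta4h in IMDP against IMSP cells, while in DP against SP cells both log2 fold changes were below 0 without a call. It measured 0.677, 0.581 and 0.512 RPKM in DP, 0.810, 0.536 and 1.13 in SP, 1.88, 1.22 and 2.33 in IMDP, and 0.690, 0.7997 and 0.899 in IMSP cells. All 3 IMDP libraries were above the other 9, and these values rest on 12 to 26 reads in IMDP and 5 to 11 reads elsewhere. Ltc4s reached 1 RPKM in 4 libraries, the 3 of IMDP and SP3. It thus passed the filter through the group in which it was high, and its contrasts with IMDP cells are a description. IMDP against IMSP cells gave a log2 fold change of 1.05 ± 0.33 (adjusted p = 0.0371), and -0.38 ± 0.33 in DP against SP cells (adjusted p = 0.637). In IMDP against DP cells it was 1.43 ± 0.33 with adjusted p = 0.0726, and in IMSP against SP cells 0.00 ± 0.33. The difference between these population effects was 1.43 ± 0.47, which did not pass over all genes (unadjusted p = 0.0101, limma adjusted p = 0.534).

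The Ltc4s call was kept in 6 of 12 fits that left out 1 library, with adjusted p from 0.0309 to 0.137. It was lost without a filter on low values, in limma-voom, in the fit of IMDP and IMSP cells alone, and without either pair of libraries high in other cell type markers, with adjusted p of up to 0.113. Exons of Ltc4s, like those of Alox5ap and Ptgs1, overlap an antisense gene model in GENCODE M21, and since the sources used here do not say whether strand was used in counting, reads of the partners cannot be told apart.

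Pla2g4a, which frees the substrate of both arms, was even across the groups. Its values ran from 9.33 to 12.9 RPKM in DP, 9.74 to 15.6 in SP, 8.90 to 11.6 in IMDP and 8.17 to 15.9 in IMSP cells, and all groups overlapped. Its log2 fold change came to -0.12 ± 0.25 for DP against SP cells and -0.10 ± 0.25 in IMDP against IMSP cells, with intervals of -0.654 to 0.421 and -0.642 to 0.433. The second value has no firm sign, being 0.17 with each library scaled to the same median.

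Ptgs2, the inducible cyclooxygenase, followed Alox5 closely. It measured 5.44, 5.92 and 3.29 RPKM in DP, 1.73, 1.44 and 3.51 in SP, 4.17, 5.40 and 1.46 in IMDP, and 1.15, 2.82 and 0.565 in IMSP cells. DP and SP overlapped only through DP3 and SP3, and IMDP and IMSP only through IMDP3. Ptgs2 differed by a log2 fold change of 1.16 ± 0.56 between DP and SP cells (adjusted p = 0.408), 1.30 ± 0.56 in IMDP against IMSP cells (adjusted p = 0.107), and 1.23 ± 0.40 averaged over treatments (adjusted p = 0.0407). The G0M+ library was the higher one in 6 of 6 neighbouring pairs, by 0.736 to 1.85, and with the block the averaged value passed at 0.000604. The averaged call was kept in 3 of 12 fits that left out 1 library, with log2 fold changes of 0.98 to 1.51 and adjusted p from 0.0134 to 0.0974. Without DP1 and IMDP1, the libraries with the highest mast cell and basophil markers, it was 1.09 with adjusted p = 0.107.

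Over the 12 libraries the log2 values of Alox5 and Ptgs2 correlated at 0.89, and at 0.96 once the group means were removed. Since these 12 points share 6 pairs of library number and 4 groups, the correlation is a description. Alox5 also correlated with the erythroid marker sum at 0.87, as did Ptgs2 at 0.87. That sum was 208 to 269 RPKM in DP, 55.3 to 148 in SP, 58.4 to 484 in IMDP and 10.7 to 72.9 in IMSP cells. The adult globin Hbb-bt, at 9.06 to 226 RPKM, made up the larger share in 10 of 12 libraries. In IMDP1 and IMSP1 other globin genes did, with Hbb-bs at 156.9 RPKM in IMDP1, while the erythroid factor Klf1 reached at most 4.50 RPKM. Of the 10 erythroid markers 7 were tested. Averaged over treatments 536 of all 10072 genes were called higher in G0M+ cells, and of these markers 1, Hbb-bt (log2 fold change 1.68, limma adjusted p = 0.0190). The part of these transcripts in the Alox5 and Ptgs2 values was not tested.

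**Figure D3:**
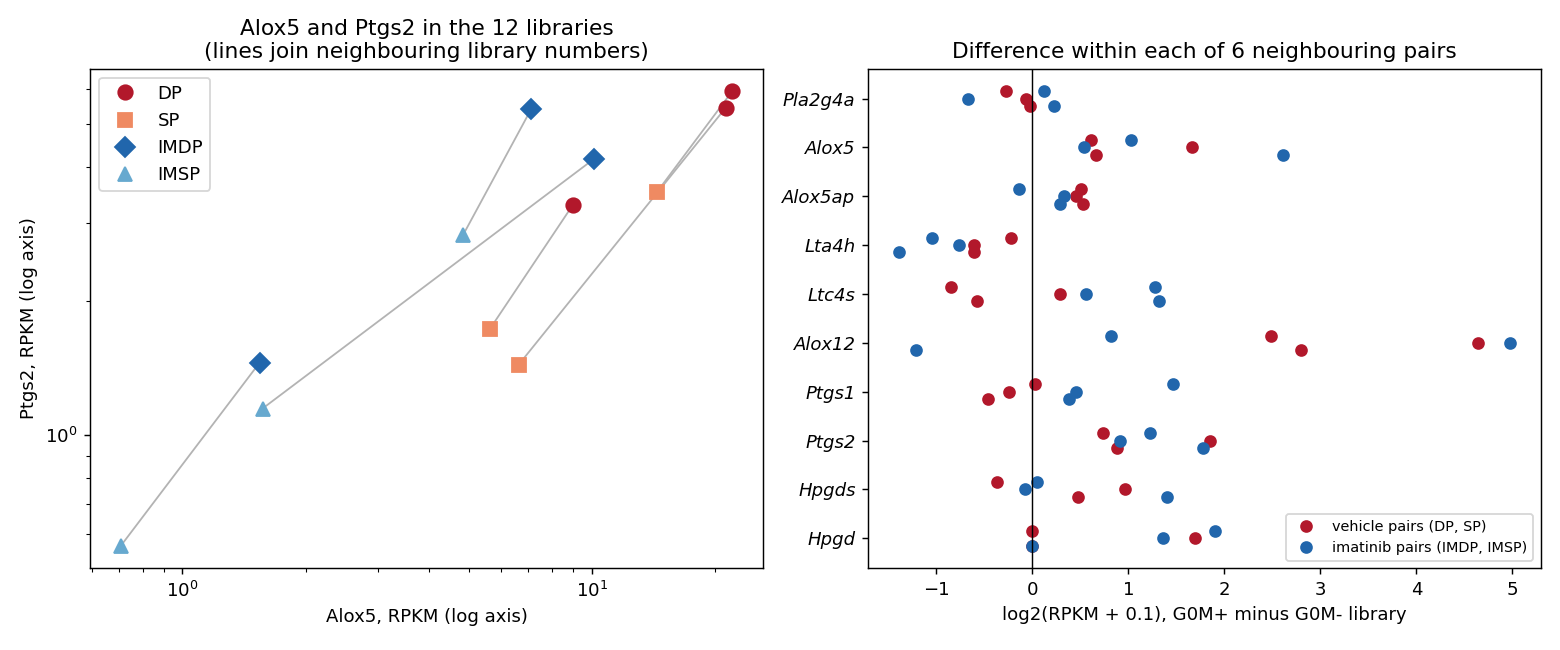
Left, RPKM of Alox5 and Ptgs2 in the 12 libraries on log axes, with lines joining neighbouring library numbers. Right, the difference in log2(RPKM + 0.1) between the G0M+ and the G0M- library of each of the 6 pairs for all 10 genes. Alox5 and Ptgs2 lie to the right of 0 in 6 of 6 pairs and Lta4h to the left in 6 of 6.

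Ptgs1, the constitutive cyclooxygenase, was set apart by a single pair of libraries. It measured 3.48, 3.72 and 4.03 RPKM in DP, 5.59, 4.13 and 3.66 in SP, 2.76, 11.4 and 2.97 in IMDP, and 2.09, 8.30 and 1.01 in IMSP cells. IMDP2 and IMSP2 were the 2 highest of all libraries, and the remaining 4 imatinib libraries were the 4 lowest. The log2 fold changes were -0.23 ± 0.65 in DP against SP cells and 0.77 ± 0.65 in IMDP against IMSP cells (adjusted p = 0.897 and 0.395, and 0.0159 for the second with the library-number block). In IMDP against DP cells the value was 0.28 ± 0.65, but -0.37 without IMDP2 and IMSP2. Averaged over populations, imatinib against vehicle gave -0.22 with all libraries (adjusted p = 0.839). Without that pair it gave -0.95, a value that leaving out the highest libraries fixes in direction and that is a description only.

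IMDP2 and IMSP2 were also the imatinib libraries with the highest megakaryocyte and platelet marker sums, 122 and 64.4 RPKM against 21.4 to 37.6 in the other 4. Vwf alone stood at 24.1 and 17.7 RPKM there and at 0.251 to 0.748 in the other 4. Ptgs1 and the marker sum correlated at 0.57 over the 12 libraries and at 0.66 within groups. All 12 megakaryocyte and platelet markers were above 0 in IMDP2, and 10 of the 12 were tested. The averaged population contrast called 536 of all 10072 genes higher in G0M+ cells, and of these markers 1, Ppbp. Whether these transcripts bear on the Ptgs1 values was not tested.

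Alox12, the platelet-type lipoxygenase, was near 0 in most libraries. The files list it as 2 numbered copies, and their sum was 5.79, 0.459 and 0.708 RPKM in DP, 0.0159, 0.136 and 0 in SP, 0, 3.95 and 0.0770 in IMDP, and 0.131, 0.0287 and 0 in IMSP cells. DP1 held 278 reads and IMDP2 180, SP libraries at most 7 and IMSP libraries at most 7, and nearly all reads of DP1 and IMDP2 fell on the first copy. The value of 0 allows up to 0.0727 RPKM in SP3, 0.0758 in IMDP1 and 0.0726 in IMSP3 (3 reads, counting error only). An exact permutation test of G0M+ against G0M- libraries within treatments gave a difference of 2.42 on the log2(RPKM + 0.1) scale (two-sided p = 0.035 over 400 arrangements, of which 0.005 is the smallest they can give), 1 of 4 such tests. All 3 DP libraries were above all SP libraries, but IMDP1 was at 0.

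DP1 and IMDP2 were the libraries with the highest megakaryocyte and platelet marker sums, 145 and 122 RPKM against 16.0 to 64.4 in the other 10, and the sums correlated with Alox12 at 0.73. Ppbp, a platelet granule gene, was at 57.8 and 39.97 RPKM in these and at most 6.55 in the others. The part of these transcripts in the Alox12 result was not tested. For imatinib against vehicle the exact test gave a difference of -0.849 (p = 0.39).

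Hpgds, the hematopoietic prostaglandin D2 synthase, was low and stood higher in the imatinib libraries. It measured 0.641, 0.410 and 0.584 RPKM in DP, 0.393, 0.280 and 0.559 in SP, 2.05, 1.09 and 1.14 in IMDP, and 0.714, 1.15 and 1.096 in IMSP cells, from 17 to 95 reads. All 6 imatinib libraries lay above all 6 vehicle libraries. The IMDP and DP libraries did not overlap for 23.6% of all genes, and the IMSP and SP libraries for 13.8%. Hpgds reached 1 RPKM in 5 libraries, all of them imatinib libraries. It thus passed the filter through the side on which it was high, and its imatinib contrasts are a description. The log2 fold change was 1.203 ± 0.38 in IMDP against DP cells, 1.102 ± 0.38 in IMSP against SP cells, and 1.15 ± 0.27 averaged over populations (95% interval 0.571 to 1.73). The averaged value did not pass over all genes (adjusted p = 0.0612), and with each library scaled to the same median it did (adjusted p = 0.0478). The population difference was 0.41 ± 0.27 averaged over treatments (adjusted p = 0.268).

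Hpgds varied with the stem and progenitor marker sum at 0.84, and at 0.47 within groups. That sum was 109 to 141 RPKM in DP, 86.1 to 106 in SP, 128 to 182 in IMDP and 126 to 137 in IMSP cells, and of its 9 markers 0 were called between imatinib and vehicle averaged over populations (limma). Mast cells are also known to make prostaglandin D2, and the correlation of the mast cell and basophil marker sum with Hpgds was 0.13. The role of either cell type in the Hpgds values was not tested.

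Hpgd, which breaks prostaglandins down, was hardly detected. It was at 0.223 RPKM in DP1, 0.156 in IMDP2 and 0.275 in IMDP3, from at most 8 reads, and at 0 in the other 9 libraries, where 3 reads would equal 0.0848 to 0.154 RPKM. All 3 libraries with reads were G0M+. The exact test gave a difference of 0.826 between populations (p = 0.2) and 0.262 between treatments (p = 0.7), so no difference was detectable at this depth.

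The mast cell and basophil marker list, 11 genes, moved with the G0M+ populations and with Alox5ap. Its summed level was 77.2 to 332 RPKM in DP and 10.5 to 23.0 in SP cells. After imatinib it was 14.9 to 195 in IMDP and 7.92 to 24.4 in IMSP cells. Of the 11 markers 7 were tested and 4 were higher in G0M+ cells averaged over treatments, beside 536 of all 10072 genes. The correlation with Alox5ap was 0.74, and 0.71 within groups, where Alox5ap also correlated at 0.74 with the monocyte and macrophage sum and at 0.73 with the neutrophil sum (0.20 and -0.04 over all libraries). Cpa3, a mast cell protease, stood at 86.9 RPKM in DP1 and 35.4 in IMDP1 and at 1.72 to 10.1 in the others. The share of these transcripts in the Alox5ap values was not tested. Without DP1 and IMDP1, the Alox5ap log2 fold change averaged over treatments was 0.23 (adjusted p = 0.179), beside 0.33 with all libraries (adjusted p = 0.0664).

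**Figure D4:**
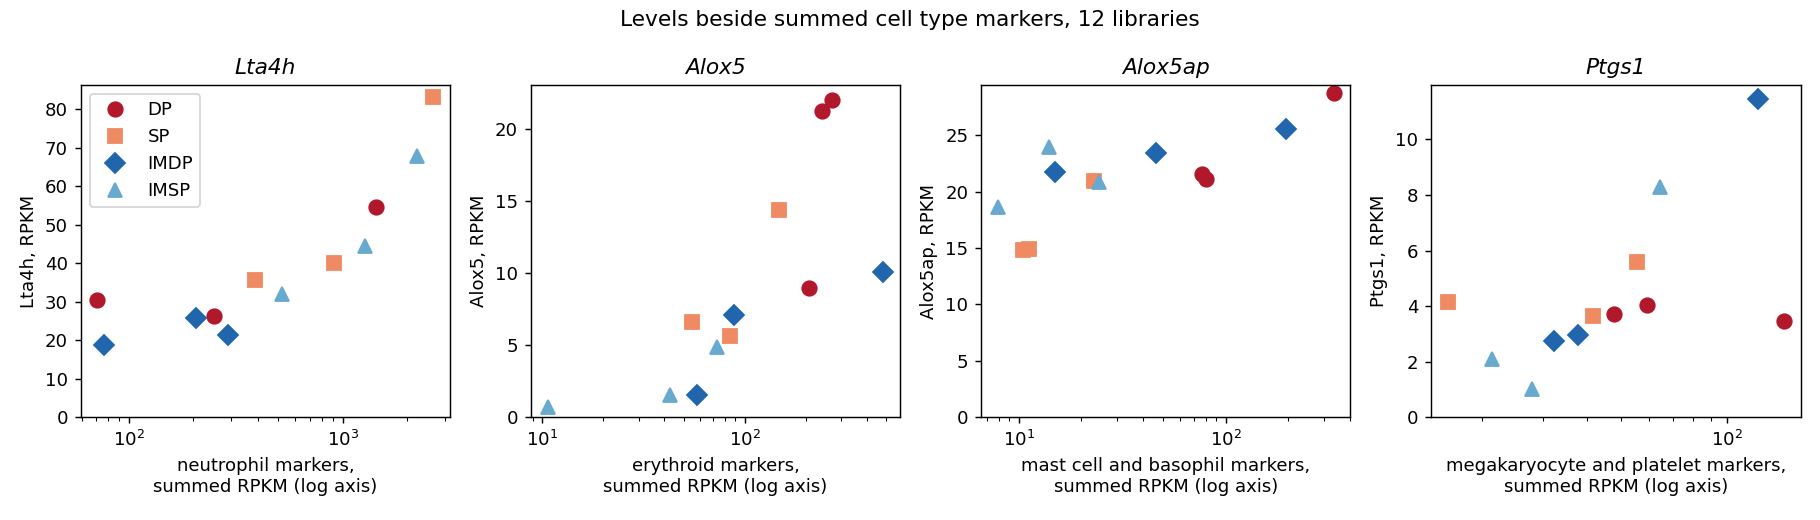
RPKM of Lta4h, Alox5, Alox5ap and Ptgs1 (vertical axes from 0) against the summed RPKM of neutrophil, erythroid, mast cell and basophil, and megakaryocyte and platelet markers (log axes), 1 point per library. Lta4h is highest where the neutrophil sum is highest, at 83.1 and 2657 RPKM in SP2.

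The genes most like each member over the 12 libraries were found from the correlation of log2 values with all tested genes. For Alox5 they were Stk39, a kinase of ion transport, Enah, an actin regulator, and Nov, a secreted matrix protein (r = 0.951, 0.944 and 0.941). For Ptgs2 they were D630039A03Rik, Sesn2, a stress-response gene, and Fam213a (0.973, 0.960 and 0.952). For Lta4h they were Gpi1 and Pgd, enzymes of sugar metabolism, and P4hb, a protein-folding enzyme (0.986, 0.978 and 0.986), each close to the same value after removing the group means (0.976 to 0.980).

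For Ptgs1 the closest genes were Gucy1a3, a subunit of soluble guanylate cyclase, Rab11a and Reep2 (0.930, 0.909 and 0.893). For Alox5ap they were Adgre1, the macrophage antigen F4/80, Tcn2 and Hgf (0.879, 0.850 and 0.848). For Hpgds they were Dhrs3, a retinal reductase, Elk3, an ETS family factor, and Egfl7 (0.928, 0.922 and 0.904), at 0.690 to 0.775 within groups. For Ltc4s they were Nudt16, Calhm2 and Tcf7 (0.895, 0.842 and 0.811), at 0.451, 0.748 and 0.406 within groups. For Pla2g4a they were Mtmr12, Frmd8 and Paip2b (0.925, 0.909 and 0.908), at 0.917 to 0.937 within groups.

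Among the listed genes themselves, the pairs that varied together most over all libraries were Alox5 with Ptgs2 and Ltc4s with Hpgds (0.72, and 0.57 within groups). Within groups Alox5ap with Lta4h (0.82), Ptgs2 with Pla2g4a (0.77), Alox5 with Pla2g4a (0.71) and Ptgs1 with Ptgs2 (0.68) exceeded that second pair. Ltc4s and Lta4h, which share a substrate, correlated at -0.59 and at -0.28 within groups. Alox5ap and Lta4h correlated at -0.03 over the libraries and at 0.82 within groups. Alox5 and Lta4h correlated at -0.11, and Ptgs1 and Ptgs2 at 0.60.

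The rest of the pathway was examined in a list of 53 further genes, of which 25 passed the filter. In IMDP against IMSP cells 0 were higher and 4 lower in the IMDP cells, beside the 25.6% of all genes, with a list median of 0.162 against -0.255 over all genes. Averaged over treatments, 2 were higher and 3 lower in G0M+ cells, beside 26.3% of all genes, with a median of 0.152 against -0.135. In DP against SP cells and in the contrasts with imatinib and the interaction 0 of 25 passed (limma), and at an unadjusted p under 0.05 these contrasts held 1, 6, 1, 2 and 3 of 25 (1328, 2061, 845, 1811 and 937 of all 10072 genes), in the order DP against SP, IMDP against DP, IMSP against SP, imatinib averaged, and interaction. With the library-number block the counts were 8 higher and 5 lower in IMDP against IMSP cells (44.1% of all genes called), 9 higher and 5 lower averaged over treatments (46.9%), and 0 of 25 in DP against SP cells (9.73%).

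Of the synthases below the cyclooxygenases, Ptges3, the cytosolic prostaglandin E synthase and HSP90 co-chaperone, was lower in IMDP than in IMSP cells. It measured 60.6, 31.7 and 42.5 RPKM in IMDP and 93.8, 78.5 and 67.03 in IMSP cells, without overlap (39% of all genes). The log2 fold change was -0.86 ± 0.21, -0.61 relative to the median of all genes (limma adjusted p = 0.0150). The level was 51.8 to 68.5 RPKM in DP and 62.7 to 73.9 in SP cells. Ptges2, the membrane-associated prostaglandin E synthase, was lower in G0M+ cells averaged over treatments (-0.53 ± 0.17, -0.40 relative to the median, adjusted p = 0.0427). Akr1b3, an aldose reductase that can make prostaglandin F, was lower in IMDP than in IMSP cells by a smaller margin (-0.44 ± 0.13, -0.19 relative to the median, adjusted p = 0.0254). Cbr1, a carbonyl reductase that acts on prostaglandin E2, was higher in G0M+ cells (0.62 ± 0.16, adjusted p = 0.0189), at 1.69 to 2.07 RPKM in DP and 1.099 to 1.39 in SP cells.

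Of the genes that convert, export and break down the products, Ggt5, which turns leukotriene C4 into D4, was higher in G0M+ cells averaged over treatments (0.83 ± 0.27, adjusted p = 0.0396). It measured 3.42, 3.62 and 4.32 RPKM in IMDP and 1.29, 2.62 and 1.49 in IMSP cells, without overlap (39% of all genes), and did not pass in that contrast (log2 fold change 1.09, adjusted p = 0.0530). Ptgr1, which inactivates leukotriene B4, was lower in IMDP than in IMSP cells (-1.62 ± 0.53, -1.37 relative to the median, adjusted p = 0.0426). Abcc4, an exporter of prostaglandins, was lower in IMDP cells too (-0.78 ± 0.23, -0.53 relative to the median, adjusted p = 0.0300), and averaged over treatments (-0.53 ± 0.16, -0.40 relative to the median, adjusted p = 0.0339). Abcc1, which exports leukotriene C4, was even, at 11.6 to 15.8 RPKM over the 12 libraries.

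The other highly expressed genes without a call were Tbxas1, thromboxane synthase (mean 7.28 RPKM), Pla2g12a (5.21), Ptger4, a receptor for prostaglandin E2 (5.20), and Pla2g15 (4.07). Tbxas1 was highest in IMDP2 and IMSP2, at 14.5 and 9.52 RPKM, the libraries in which Ptgs1 was highest. Pla2g12a averaged -0.77 ± 0.17 for imatinib against vehicle (adjusted p = 0.0574). Of the 28 list members under the filter, 2 were at 0 in all libraries.

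**Figure D5:**
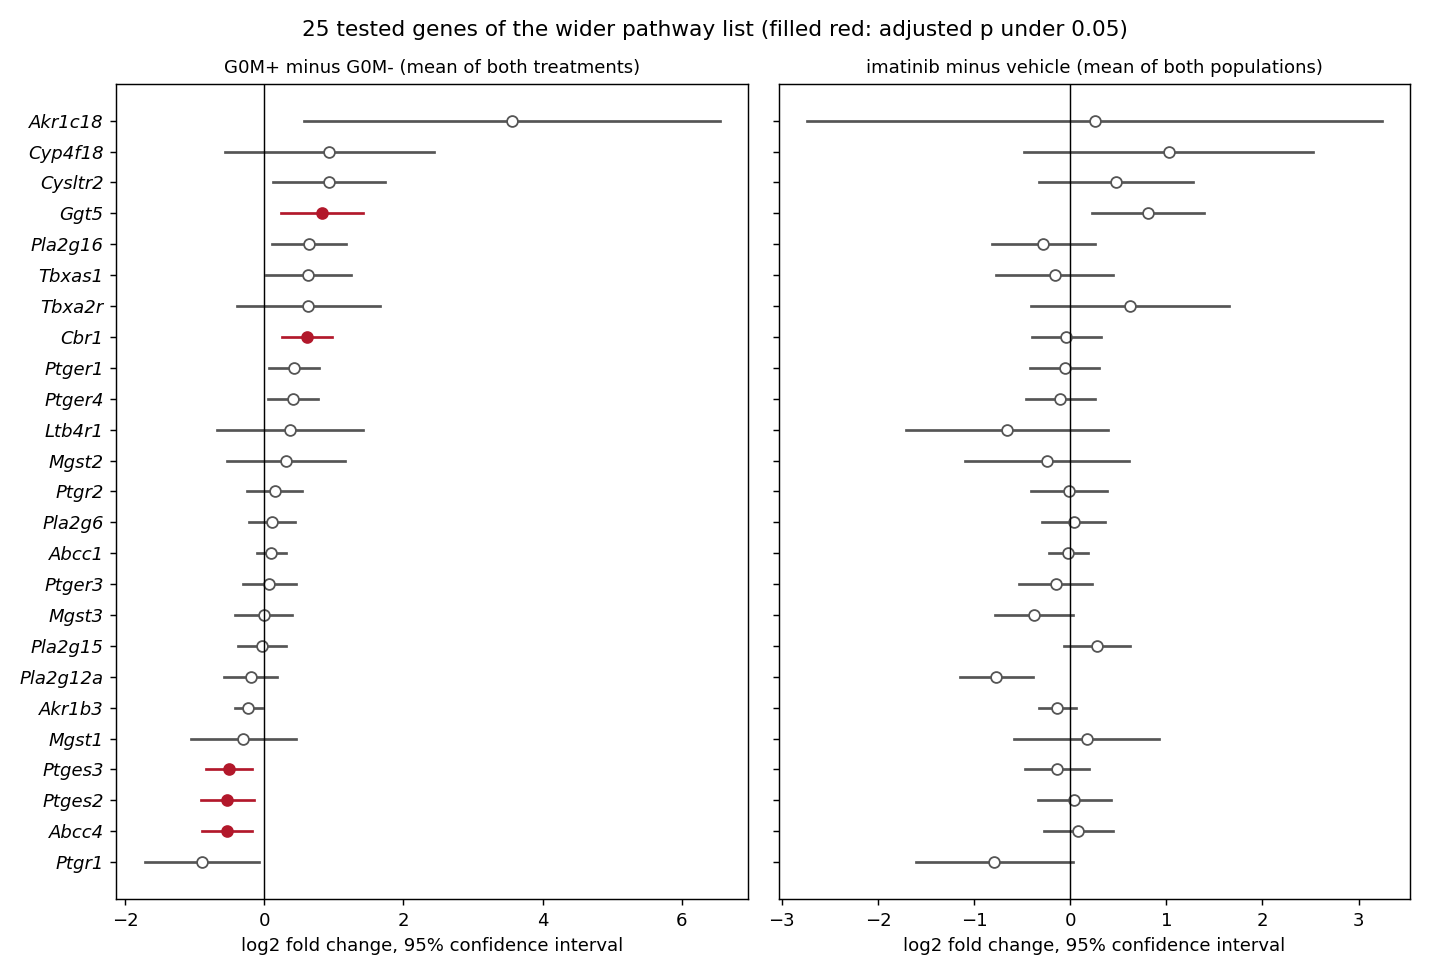
log2 fold change with 95% confidence interval (horizontal axes) of the 25 tested genes of the wider list, for G0M+ against G0M- cells averaged over treatments (left) and imatinib against vehicle averaged over populations (right). Filled red marks the 5 genes with an adjusted p under 0.05, Ggt5 and Cbr1 to the right of 0 and Ptges3, Ptges2 and Abcc4 to the left, and 0 are marked in the right panel.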

How the data were processed

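The libraries were prepared from 100 sorted cells with not-so-random primers and Nextera XT, and the authors mapped the reads to GRCm38 (mm10) with CLC Genomics Workbench. The reporting summary names HISAT2 and featureCounts instead. Per the labels and methods, the authors deposited expression as RPKM, with 1 file per library and 48737 features each.

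From these files, numbered copies of a gene were summed to 46103 genes. The reads behind each value were recovered from its steps: 17732 of 17735 features above 0 gave whole reads in all libraries, within 0.1 read. Floors cover counting error only, since PCR copies cannot be told apart. The 95% intervals come from the limma standard error and measure the spread between libraries. Genes of at least 1 RPKM in at least 3 libraries were fitted on log2(RPKM + 0.1) with limma 3.58.1 in R 4.3.3 (4 group means, trend, two-sided, Benjamini-Hochberg over 10072 genes, threshold 0.05). A log2 fold change on this scale understates changes of low genes. The script was tested on simulated data. Alox12 and Hpgd, under the filter, were tested by exact permutation within strata, 4 tests without adjustment. Tables and plots were made in Python 3.11.15 (pandas 2.3.3, numpy 2.4.6, matplotlib 3.10.9).

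The genes, the further pathway list, the marker lists and the tests were chosen with earlier results of these data known. All 10 genes are named, with the 3 genes most correlated with each tested one, and of the wider list those past the threshold and the 5 with the highest mean that were not. Alternatives changed the filter, pseudocount, scaling, test, block, groups in the fit and library left out. Samples were grouped by their titles. Replicate numbers paired IMDP with IMSP (correlations of deviations 0.43 to 0.65) but not DP with SP (-0.30 to -0.10), whereas library numbers paired all 6 neighbours (0.43 to 0.65). In IMDP and IMSP cells both pairings are the same.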

Additional observations from a re-analysis of the deposited data

How the results depend on the processing

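Counts of the 8 tested genes past the threshold moved with the processing wherever any passed. In IMDP against IMSP cells the count of 2 became 0 without a filter, 1 with the filter of 6 libraries (Ltc4s not tested), 1 with median scaling, in limma-voom on recovered reads, and with only these groups in the fit, and 5 with the library-number block. Averaged over treatments the population count of 2 became 0 without a filter and 4 with the library-number block. In DP against SP cells 0 became 2 with that block. Over all genes the IMDP against IMSP calls were 2155 of 16776 without a filter and 2588 of 9409 with the filter of 6 libraries. They were 1587 with median scaling, 2563 in limma-voom, 1553 with only these groups and 4446 with the block. Averaged over treatments they were 2321 of 16776 without a filter and 4721 with the block. In DP against SP cells the block gave 980. For imatinib against vehicle averaged over populations 0 became 1 with median scaling (Hpgds), while the calls over all 10072 genes rose from 86 to 162. Hpgds had passed the filter through imatinib libraries only. Leaving out 1 library gave 0 to 3 calls in IMDP against IMSP cells (0 without SP1, IMDP1, IMSP1 or IMSP3 and 1 without DP2, DP3 or IMDP2), 0 to 3 for the averaged population contrast (0 without DP2, DP3, SP1, IMDP2, IMSP1 or IMSP3 and 1 without DP1, SP2 or IMDP1), and 0 to 1 for imatinib averaged over populations (Alox5 at -2.27, adjusted p = 0.0470, without IMSP2). In DP against SP, IMDP against DP, IMSP against SP cells and the interaction it gave 0. Over all genes these fits called 902 to 2962 of 10072 in IMDP against IMSP cells (902 without IMSP1, 2962 without IMDP1, 2581 with all). Averaged over treatments they called 1583 to 3061 (1583 without DP3, 3061 without IMDP1, 2648 with all libraries). For imatinib averaged over populations they called 12 to 143 (12 without DP2, 143 without IMSP2, 86 with all libraries). IMSP2 is also the highest IMSP library for Alox5. The cause was not tested.

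Chosen after seeing the data, leaving out DP1 and IMDP1 gave 1 call in IMDP against IMSP cells and 1 averaged over treatments. Over all 10072 genes these counts were 2987 and 3301. Leaving out IMDP2 and IMSP2 gave 0 and 1, beside 1019 and 2081 over all genes. For imatinib averaged over populations it gave 2, Alox5 and Ptgs1, beside 369 over all genes (86 with all libraries). Ptgs1 is highest in exactly these libraries and IMSP2 is the highest IMSP library for Alox5, so these 2 calls are a description. The sign of Pla2g4a in IMDP against IMSP cells was 0.17 with median scaling and 0.18 without IMDP2 and IMSP2 (-0.31 to 0.17 leaving out 1 library), that of Ptgs1 in IMDP against DP cells -0.37 without IMDP2 and IMSP2 (-0.37 to 0.63), and that of Lta4h in IMSP against SP cells ran from -0.39 to 0.28, the latter without SP2. The wider list's count of 4 in IMDP against IMSP cells became 13 with the library-number block and 2 without IMDP2 and IMSP2 (0 to 8 leaving out 1 library, with 0 without IMDP2 or IMSP1, 2 without IMDP3 or IMSP3 and 8 without IMSP2). Its count of 5 averaged over treatments became 14 with that block. Leaving out 1 library gave 0 to 7. It was 0 without IMSP1, 1 without DP3, SP2 or IMDP2, 2 without DP2 or IMSP3, and 3 without IMDP3. The list's count of 0 for imatinib averaged over populations became 1 with median scaling and 1 without IMDP2 and IMSP2. Over all genes these settings gave 162 and 369 calls. The Alox12 difference between populations was 3.61 with a pseudocount of 0.01 (exact p = 0.06) and 1.60 to 2.93 leaving out 1 library (exact p = 0.01 to 0.08, above 0.05 without DP1, SP1, SP2, SP3, IMDP2, IMSP2 or IMSP3).

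With the number in the sample titles as a replicate block, the counts of the 8 genes stayed at 2 in IMDP against IMSP cells, 2 averaged over treatments and 0 in the other contrasts. Ltc4s, Hpgds, Alox12 and Hpgd rest on few reads, and the depth limits what can be seen there.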

Other observations

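Beyond the comparisons, Akr1c18, a hydroxysteroid dehydrogenase that can also make prostaglandin F, was singled out after its values were seen. It measured 25.03 RPKM in DP1, 0.281 in DP3, 9.77 in IMDP1 and 2.68 in IMDP2, and was listed at 0 in the other 8 libraries, among them all SP and IMSP libraries. DP1 and IMDP1 were also the libraries with the highest mast cell and basophil marker sums, 332 and 195 RPKM. Only DP1, IMDP1 and IMDP2 reached 1 RPKM, so Akr1c18 passed the filter through the population in which it was high. Its log2 fold change averaged over treatments, 3.55 ± 1.37, is therefore a description and no test. Cysltr2, a receptor for cysteinyl leukotrienes, was also chosen after its values were seen. It stood at 1.61, 2.54 and 1.72 RPKM in IMDP and 1.04, 1.22 and 0.359 in IMSP cells, without overlap (39% of all genes). The log2 fold change was 1.19 ± 0.52 (limma adjusted p = 0.112). The complement genes C1qa, C1qb and C1qc, markers of macrophages, were listed at 0 in all 6 SP and IMSP libraries and above 0 in 5, 6 and 6 of the 6 DP and IMDP libraries.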
